A study of Mus musculus with 20 samples.

Results

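The BS-labelled and Cort-labelled microglia libraries of 5 mice carrying the BRAF V600E allele were compared within each mouse. The mice were chosen by the mouse number in the column names of the count table, taking the numbers whose sample titles call them VE, which gave M1376 and M1524 at end-stage and M2617, M2621 and M2624 at 2 months. They contributed 10 of the 20 libraries and 5 of the 10 mice in the series. Within a mouse, the odd running number was the BS-labelled (brainstem) library and the even number the Cort-labelled (brain cortex) library. Each library is bulk RNA of cells labelled microglia, so fewer cells of a type and less RNA per cell cannot be told apart.

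The study concerned histiocytosis with microglia-driven neurodegeneration, and its design set BRAF V600E against wild-type microglia in both regions at 2 months and at end-stage. All 5 mutants were recorded or titled as Braf VE; CX3 HET, that is, a Braf LSL-V600E allele together with Cx3cr1-CreER. The 5 control mice (M1375 and M1521 at end-stage, M2618, M2629 and M2633 at 2 months by the same reading) were Braf WT; CX3 HET, apart from M1375, which was Braf VE; CX3 WT. All embryos received 4-hydroxytamoxifen through 1 injection of the pregnant female at 37.5 mg per kg on embryonic day 9.5. Cx3cr1-CreER is active in microglial progenitors and in other myeloid cells that express Cx3cr1, so the allele is not restricted to microglia by the driver alone, and its Cre insertion leaves the mice heterozygous for Cx3cr1. The sources used here do not say how the cells were sorted.

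The label of 2 of the 5 mice was not settled. The columns named M2617 and M2621 are tied by the sample record to titles of control mice, and the columns M2618 and M2633 to titles of mutants. M1376, M1524 and M2624 were mutant under both readings, and the counts in these 3 mice, and in the 5 mutants of the record (columns M1376, M1524, M2618, M2624 and M2633), are given beside the main results.

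Microglia are the resident macrophages of the brain. In the healthy brain they carry a homeostatic set of transcripts that depends on TGF-beta signalling and includes purine receptors such as P2ry12. Around damage, plaques or dying cells they lower this set and raise a disease-associated set with Apoe, Itgax, Cst7 and Clec7a. BRAF is a kinase of the ERK pathway, and the V600E change keeps it active without an upstream signal.

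Library totals lay between 12852353 and 21171114 counts. In these libraries 3 counts corresponded to 0.145 to 0.236 CPM (counts per 1000000 counts of the library). The 10 most abundant genes took 11.4 to 20.4% of counts, and mitochondrially encoded genes 0.143 to 0.422%. After the mean of each region and stage was removed, the 2 libraries of a mouse still correlated at 0.233 to 0.414 over 13549 genes. The deviations of the 2 end-stage mice mirror each other by construction, so the 0.414 of M1376 and M1524 is 1 value and not 2 checks. The X-inactivation transcript Xist was found in both libraries of M1376, M1524 and M2621, and the Y-linked Ddx3y in both libraries of M2617 and M2624. Both end-stage mice had Xist and 1 of the 3 younger mice did, so stage and sex overlapped in part, and the part of sex was not tested. On the first principal component of log CPM, which held 35.6% of the variance, all 5 BS-labelled libraries had positive scores and all 5 Cort-labelled libraries negative ones.

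The region label was checked against transcripts of the surrounding tissue. Hox genes, which mark the hindbrain and spinal cord and are silent in the cerebral cortex, summed over all 39 genes to 0.943, 0.741, 1.87, 1.16 and 0.473 CPM in the BS-labelled libraries of M1376, M1524, M2617, M2621 and M2624, against 0.816, 1.09, 1.69, 2.65 and 2.04 CPM in their Cort-labelled libraries. The BS-labelled sum was the lower one in 3 of 5 mice (87 against 153 counts, exact 2-sided sign-flip permutation p = 0.25, where 5 pairs cannot go below 0.0625). The 17 Hox genes of the brainstem list gave 0.695 ± 0.358 CPM in the BS-labelled and 1.51 ± 0.768 CPM in the Cort-labelled libraries (SD, n = 5 each; exact permutation p = 0.125), lower under the BS label in 4 of 5 mice. Hoxb4 had 0.444, 0.0529, 0.504, 0.873 and 0.394 CPM in BS-labelled libraries, against 0.326, 0.770, 0.542, 0.701 and 0.916 CPM in Cort-labelled ones, and Hoxb5, a gene of the caudal hindbrain, had 0, 0.0529, 0.0720, 0 and 0 CPM in BS-labelled libraries, against 0, 0, 0.361, 1.05 and 0.611 CPM in Cort-labelled ones. Hoxa4, Hoxa5, Hoxa9, Hoxb2, Hoxb3 and Hoxb6 stayed below 1 CPM in each of the 10 libraries, and Hoxc4 had 0 counts in all of them. Of the 32 brainstem genes 1 was tested, Tal1, which blood cells also express (log2 difference 0.09 ± 0.14 (SE), adjusted p = 0.698). These sums rest on few counts, and they did not single out the BS-labelled libraries. In the other direction, 2 genes of the cortex list were tested and both were higher in the BS-labelled libraries: Mef2c, which microglia also express, and Cux2, which marks upper-layer neurons (log2 difference 2.07 ± 0.48 (SE), adjusted p = 0.0213). Cux2 was called in 2 of the 5 fits without a mouse and not by the sample record. The libraries are therefore called BS-labelled and Cort-labelled throughout, and which region each one came from was not settled by these transcripts.

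Between the BS-labelled and the Cort-labelled libraries, 2227 of 13551 genes tested (16.4%) differed at an adjusted p under 0.05 in edgeR's quasi-likelihood test with mouse as a block. Of these, 1041 (7.68% of genes tested) were higher and 1186 (8.75%) were lower in the BS-labelled libraries, and the largest differences were mostly on the lower side: 300 called genes were lower by more than 4-fold and 83 were higher by as much. With library totals in place of TMM scaling the split was 1348 higher and 893 lower, so the overall balance depends on the scaling. The sign was the same in all 5 mice for 2136 of the called genes. The paired test itself favours such genes, so this count is no separate support for the calls. The 5 BS-labelled values did not overlap the 5 Cort-labelled values for 1132 of the tested genes (8.35%), and 927 of these were called. Without M1376 the count was 1483 and without M2624 it was 1407. It was 897 in the 3 mice that are mutant under both readings (361 higher and 536 lower), of which 819 were among the 2227, and 518 with genotype by the sample record (186 higher and 332 lower). Of 144 called genes named here, 47 kept their call by the sample record and 97 lost it. P2ry12, P2ry13, Sall1, Cst7, Apoe, H2-K1, H2-D1, C4b, Ctss and Tgfbr1 were among those lost, and Crybb1, Itgax, Spp1, Clec7a and C3 among those kept. In the 3 mice of both readings 100 of 148 kept their call.

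Homeostatic microglial transcripts were higher in the BS-labelled libraries. Of 25 listed genes, all tested, 19 rose and 1 fell, with a median log2 difference of 0.58, against -0.00173 over all genes tested. P2ry12, the ADP receptor that steers microglial processes toward injury, had 5401, 5544, 6776, 8163 and 8840.0 CPM in BS-labelled libraries, against 1928, 1031, 2874, 2207 and 3453 CPM in Cort-labelled ones (values in the order M1376, M1524, M2617, M2621, M2624, here and below). All 5 BS-labelled values lay above all 5 Cort-labelled ones, a 3.20-fold difference (log2 difference 1.68 ± 0.17 (SE), adjusted p = 0.000652). The crystallin gene Crybb1, a member of the homeostatic list, had 195, 249, 290.3, 353 and 290.4 CPM in BS-labelled libraries, against 64.4, 76.1, 111, 98.6 and 65.4 CPM in Cort-labelled ones, again without overlap and 3.33-fold higher (log2 difference 1.74 ± 0.12 (SE), adjusted p = 0.00022). P2ry13, a second ADP receptor, had 1506, 1884, 2940.1, 3039.7 and 3208 CPM in BS-labelled libraries, against 979.6, 931, 1536, 1564 and 1552 CPM in Cort-labelled ones. The BS-labelled value of M1376 lay below the Cort-labelled values of the 3 younger mice, but within each mouse the BS-labelled library was the higher one (log2 difference 0.92 ± 0.09 (SE), adjusted p = 0.000581). Sall1, a transcription factor required for microglial identity, rose less (log2 difference 0.55 ± 0.11 (SE), adjusted p = 0.00919), and so did Tmem119 (log2 difference 0.43 ± 0.09 (SE), adjusted p = 0.0159; called in 3 of the 5 fits without a mouse), Siglech (log2 difference 0.87 ± 0.14 (SE), adjusted p = 0.00492) and the fractalkine receptor Cx3cr1 (log2 difference 0.58 ± 0.11 (SE), adjusted p = 0.011), of which the strain carries 1 working copy. Fcrls, an Fc receptor-like gene of microglia, had 861, 1009, 2446, 2605 and 3839 CPM in BS-labelled libraries, against 638, 638, 399, 745 and 1088 CPM in Cort-labelled ones. The test gave a log2 difference of 1.47 ± 0.29 (SE), adjusted p = 0.011; it rose at 2 months in the fit by stage (2-month log2 difference 2.09 ± 0.16 (SE), adjusted p = 0.000408) and did not pass at end-stage (end-stage log2 difference 0.55 ± 0.19 (SE), adjusted p = 0.151).

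The single member that fell was Irf8, a transcription factor of the myeloid lineage, with 745, 1076, 1096, 913 and 1026 CPM in BS-labelled libraries, against 983, 1187, 1289.8, 1488 and 1271 CPM in Cort-labelled ones. It was lower in each mouse by a small amount (log2 difference -0.36 ± 0.10 (SE), adjusted p = 0.0358), kept its call in 1 of the 5 fits without a mouse, and lost it with library totals, where 20 homeostatic genes rose and none fell. In the 3 mice that are mutant under both readings 16 homeostatic genes rose and none fell, and by the sample record 8 rose and none fell.

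Disease-associated transcripts went the other way. Of 28 listed genes, 26 were tested, 19 fell and none rose, with a median log2 difference of -1.38. Itgax, which encodes the integrin CD11c, had 7.87, 42.6, 18.7, 8.92 and 16.8 CPM in BS-labelled libraries, against 105, 325, 109, 53.02 and 98.3 CPM in Cort-labelled ones. It was 7.25-fold lower without overlap (log2 difference -2.86 ± 0.19 (SE), adjusted p = 0.00022). Cst7, the cysteine protease inhibitor cystatin F, had 12.5, 26.3, 13.4, 10.8 and 10.2 CPM in BS-labelled libraries, against 119, 132, 45.4, 42.3 and 51.9 CPM in Cort-labelled ones and was 5.03-fold lower (log2 difference -2.33 ± 0.20 (SE), adjusted p = 0.00047). Spp1, which encodes osteopontin, had 9.43, 232, 102, 16.1 and 36.2 CPM in BS-labelled libraries, against 927, 3817, 336, 200.4 and 1205 CPM in Cort-labelled ones, and was 18.3-fold lower (log2 difference -4.20 ± 0.63 (SE), adjusted p = 0.00331). Within each region Spp1 was highest in M1524, and the range over mice was wider than for Itgax. Axl, a receptor through which phagocytes take up dying cells, was 10.7-fold lower (log2 difference -3.42 ± 0.33 (SE), adjusted p = 0.000602), the beta-glucan receptor Clec7a 8.97-fold (log2 difference -3.16 ± 0.47 (SE), adjusted p = 0.0032) and the galectin Lgals3 11.2-fold (log2 difference -3.49 ± 0.44 (SE), adjusted p = 0.00165).

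Apoe, the main lipid carrier of the brain, had 2934, 5951, 1756, 689 and 1198 CPM in BS-labelled libraries, against 95155, 101128, 6096, 1206 and 3237 CPM in Cort-labelled ones. Both end-stage Cort-labelled libraries stood far above the other 8. It was 5.91-fold lower in the BS-labelled libraries over both stages (log2 difference -2.56 ± 0.62 (SE), adjusted p = 0.024); without 1 of the mice the adjusted p reached 0.0662. Cd52, a small surface glycoprotein, fell as well (log2 difference -1.20 ± 0.09 (SE), adjusted p = 0.000327). Lpl, a lipoprotein lipase, had 18.97, 23.5, 59.2, 14.2 and 15.4 CPM in BS-labelled libraries, against 451, 214, 46.4, 19.2 and 52.8 CPM in Cort-labelled ones and did not pass over both stages (log2 difference -1.91 ± 0.68 (SE), adjusted p = 0.0885). Trem2, the receptor needed for the full disease-associated state, had 1605, 1993, 2024, 1931 and 2092 CPM in BS-labelled libraries, against 2419, 2246, 2288, 1797 and 1725 CPM in Cort-labelled ones, with BS-labelled values below the Cort-labelled ones in 3 mice and above them in 2. Its log2 difference was -0.11 ± 0.12 (SE) (adjusted p = 0.567). For its adaptor Tyrobp the difference was -0.05 ± 0.10 (SE) (adjusted p = 0.766). The count of falling members was 16 to 20 when each mouse was left out, 19 in the 3 mice of both readings, and 5 by the sample record.

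**Figure D1:**
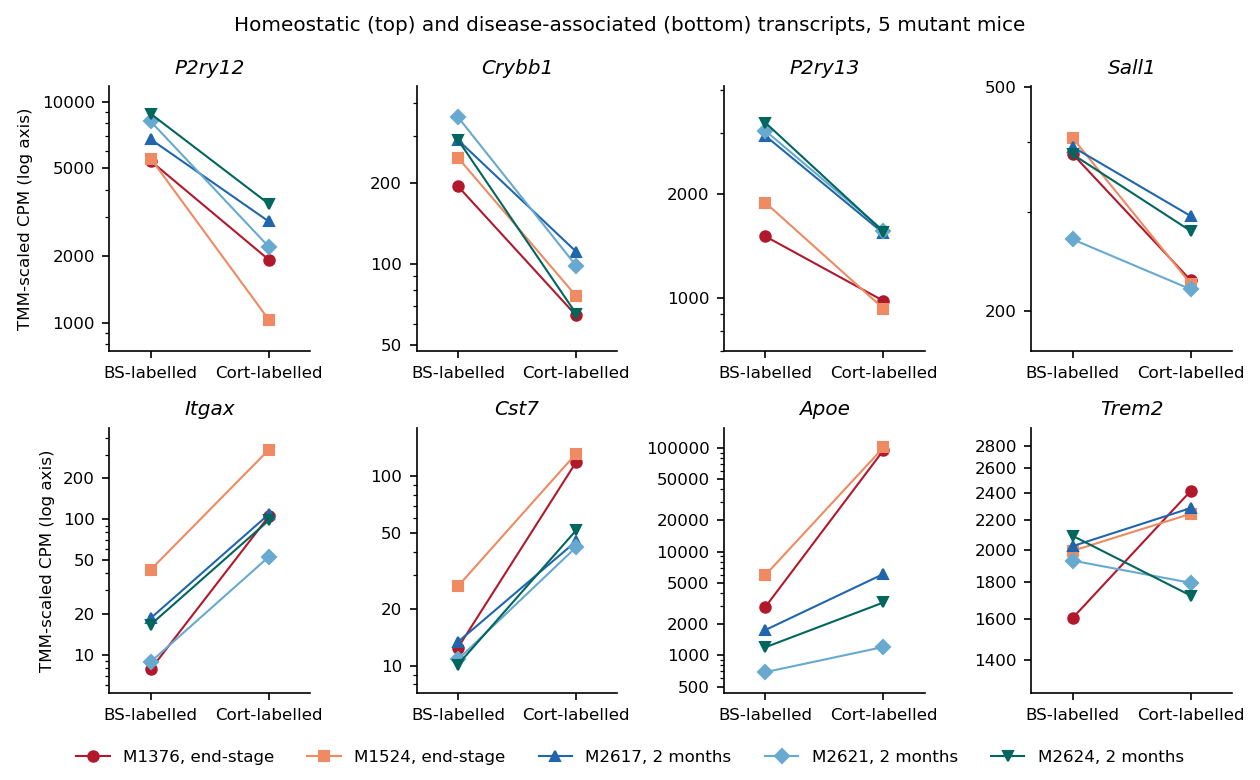
CPM (TMM-scaled, log axis) of 4 homeostatic genes (top) and 4 disease-associated genes (bottom) in the BS-labelled and Cort-labelled library of each of 5 mutant mice, joined by mouse. P2ry12, Crybb1, P2ry13 and Sall1 slope down to the Cort label in every mouse, Itgax, Cst7 and Apoe slope up in every mouse, and Trem2 crosses.

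MHC class I presentation genes were lower in the BS-labelled libraries. All 16 listed genes were tested, 13 fell and none rose, with a median log2 difference of -1.20. H2-K1, a classical class I heavy chain, had 595, 1808, 1117, 533 and 857 CPM in BS-labelled libraries, against 2272, 4203, 4902, 2775 and 3263 CPM in Cort-labelled ones. It was 3.78-fold lower without overlap (log2 difference -1.92 ± 0.15 (SE), adjusted p = 0.000366). H2-D1, the other classical heavy chain, was 3.67-fold lower (log2 difference -1.88 ± 0.18 (SE), adjusted p = 0.000635), the class Ib gene H2-Q4 was lower too (log2 difference -1.94 ± 0.23 (SE), adjusted p = 0.00118), and so was B2m, the light chain shared by all class I molecules, by 2.27-fold (log2 difference -1.18 ± 0.15 (SE), adjusted p = 0.0016). Nlrc5, the transactivator of class I genes, had 5.43, 17.5, 1.87, 1.70 and 1.02 CPM in BS-labelled libraries, against 19.03, 34.1, 26.6, 24.5 and 22.5 CPM in Cort-labelled ones. It was 7.23-fold lower (log2 difference -2.85 ± 0.51 (SE), adjusted p = 0.00719). The class I genes are near-identical copies in part, and how reads matching several of them were counted is not stated. Values of single H2 genes are therefore uncertain. Leaving out each mouse left 10 to 12 falling members. In the 3 mice of both readings 9 fell, and by the sample record 1 did.

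The stretch before the start of class I and interferon-response genes can hold NF-kappaB or interferon-response motifs. Both gene groups differed between the libraries, so stretches of genes named here are shown. All are 120 bases from within the 250 before the RefSeq start on GRCm38.p6 (the mm10 build), read 5′ to 3′ along the gene, with motif matches in capitals. The motif GGGATTCCC, an NF-kappaB site of class I enhancers, was searched on both strands over the 250 bases. So was GAAANNGAA, the core of the interferon-stimulated response element.
H2-K1, chr17:34000368-34000487, minus strand, GGGATTCCC: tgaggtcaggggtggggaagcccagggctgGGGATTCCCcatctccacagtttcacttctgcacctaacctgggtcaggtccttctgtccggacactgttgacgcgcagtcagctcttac
H2-D1, chr17:35262894-35263013, plus strand, GGGATTCCC: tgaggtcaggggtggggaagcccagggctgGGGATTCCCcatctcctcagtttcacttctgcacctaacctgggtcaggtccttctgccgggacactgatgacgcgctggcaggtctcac
B2m, chr2:122147518-122147637, plus strand, GAAANNGAA: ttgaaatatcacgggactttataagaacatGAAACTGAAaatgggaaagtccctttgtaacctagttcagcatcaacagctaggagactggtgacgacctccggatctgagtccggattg
Isg15, chr4:156200819-156200938, minus strand, GAAANNGAA in 3 overlapping matches: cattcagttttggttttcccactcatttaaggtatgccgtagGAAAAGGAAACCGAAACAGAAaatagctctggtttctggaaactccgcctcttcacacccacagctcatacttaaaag
Rsad2, chr12:26456482-26456601, minus strand, GAAANNGAA on the opposite strand: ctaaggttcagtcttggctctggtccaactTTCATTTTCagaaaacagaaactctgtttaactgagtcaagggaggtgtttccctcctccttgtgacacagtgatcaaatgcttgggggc
GGGATTCCC stood before 4 of 14 class I genes with a stretch in the table (28.6%), 0 of 21 interferon-response genes (0%) and 99 of 32851 starts in all (0.301%). GAAANNGAA stood before 3 of 14 class I genes (21.4%), 12 of 21 interferon-response genes (57.1%) and 2342 of all starts (7.13%). A listed gene counted once if any of its starts had a match, while the share of all starts is per start, so the shares are in unlike units. The H2-K1 and H2-D1 stretches are nearly the same sequence, so their matches are not separate occurrences. All matches describe letters in a window, and no binding was measured.

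Complement genes fell in part. Of 18 listed genes 16 were tested, 7 fell and 1 rose, the latter a share near the 7.68% of all genes tested. C3, the central component, had 0.721, 6.14, 0.288, 0.291 and 0.867 CPM in BS-labelled libraries, against 71.8, 223, 14.2, 6.36 and 6.26 CPM in Cort-labelled ones. It was 35.2-fold lower without overlap (log2 difference -5.14 ± 0.43 (SE), adjusted p = 0.000442). C4b was 11.2-fold lower (log2 difference -3.49 ± 0.37 (SE), adjusted p = 0.000825) and C2 9.29-fold (log2 difference -3.22 ± 0.28 (SE), adjusted p = 0.00047). C1qa, a chain of the initiating complex that microglia make in bulk, differed by -0.26 ± 0.12 (SE) (adjusted p = 0.18). Of 15 MHC class II and costimulation genes, all tested, 4 fell and none rose: the invariant chain Cd74 (log2 difference -1.32 ± 0.18 (SE), adjusted p = 0.00215), Icosl (log2 difference -0.67 ± 0.11 (SE), adjusted p = 0.00547), Cd83 (log2 difference -0.97 ± 0.18 (SE), adjusted p = 0.00862) and Cd40 (log2 difference -2.14 ± 0.58 (SE), adjusted p = 0.0354). Cd40 kept its call in 2 of the 5 fits without a mouse.

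Cytokines and chemokines were mostly lower in the BS-labelled libraries, with 15 of 25 tested genes (29 listed) falling and 2 rising. Cxcl13, which draws B cells, had 2.16, 395, 7.92, 0.533 and 12.9996 CPM in BS-labelled libraries, against 658, 1835, 185, 63.7 and 138 CPM in Cort-labelled ones; it was 25.4-fold lower, with the BS-labelled library of M1524 far above the other 4 (log2 difference -4.67 ± 0.82 (SE), adjusted p = 0.00665). Cxcl14 fell 22.9-fold (log2 difference -4.52 ± 0.38 (SE), adjusted p = 0.000442), the T cell chemokine Ccl5 9.36-fold (log2 difference -3.23 ± 0.41 (SE), adjusted p = 0.00178), and Cxcl16 3.36-fold (log2 difference -1.75 ± 0.21 (SE), adjusted p = 0.00122). Il1b, an inflammasome-processed cytokine, had 5.99, 15.4, 29.7, 12.1 and 4.96 CPM in BS-labelled libraries, against 91.2, 73.1, 42.8, 59.98 and 44.0 CPM in Cort-labelled ones. It was 5.31-fold lower (log2 difference -2.41 ± 0.42 (SE), adjusted p = 0.00655), and Tnf was lower in 4 of 5 mice (log2 difference -1.44 ± 0.33 (SE), adjusted p = 0.0187). The 2 members that rose were a share near the 7.68% of all genes tested. They were Tgfb1, a ligand of the pathway that maintains homeostatic microglia (log2 difference 0.46 ± 0.11 (SE), adjusted p = 0.0193), and Ccl24 (log2 difference 1.27 ± 0.32 (SE), adjusted p = 0.0273), with calls in 2 and 1 of the 5 fits without a mouse.

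Among genes of the NF-kappaB pathway, Rela and Nfkb1, which encode the p65 and p50 subunits, were higher (Rela, log2 difference 0.40 ± 0.10 (SE), adjusted p = 0.0269; Nfkb1, log2 difference 0.62 ± 0.09 (SE), adjusted p = 0.00331). Rela kept its call in 2 of the 5 fits without a mouse. These were the 2 of 22 tested genes that rose, a share near the 7.68% of all genes, and 9 fell, among them Bcl3 (log2 difference -2.39 ± 0.34 (SE), adjusted p = 0.00281), an atypical inhibitor, and Bcl2a1d (log2 difference -1.13 ± 0.16 (SE), adjusted p = 0.00289), whose near-identical copies make its own level uncertain. Pattern recognition and scavenger receptors had 8 lower and 3 higher among 27 tested, the latter beside the 7.68% of all genes tested that rose. Tlr2, a receptor of bacterial lipopeptides, had 132, 215, 233, 153 and 151 CPM in BS-labelled libraries, against 560.1, 749, 479.6, 401 and 453 CPM in Cort-labelled ones. Its fitted value was a log2 difference of -1.58 ± 0.14 (SE), adjusted p = 0.000489, and the sialic acid receptor Siglec1 was 10.9-fold lower (log2 difference -3.44 ± 0.35 (SE), adjusted p = 0.000761). Tlr5, the flagellin receptor, ran the other way with 12.5, 10.6, 18.7, 20.8 and 11.3 CPM in BS-labelled libraries, against 1.52, 0.834, 0.181, 2.55 and 2.04 CPM in Cort-labelled ones. It was 11.2-fold higher without overlap (log2 difference 3.49 ± 0.49 (SE), adjusted p = 0.00257). Stab1, a scavenger receptor, was 2.17-fold higher (log2 difference 1.12 ± 0.14 (SE), adjusted p = 0.00165), and Siglech, given above, was the third that rose.

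Lysosomal genes fell by small, regular amounts: 16 of 30 tested fell and none rose, with a median log2 difference of -0.44. Ctss, the cathepsin that trims the invariant chain, had 9733, 10598, 10233, 10287 and 10973 CPM in BS-labelled libraries, against 16832, 17556, 20919, 17579 and 19074 CPM in Cort-labelled ones, without overlap (log2 difference -0.82 ± 0.07 (SE), adjusted p = 0.000489). Ctsb (log2 difference -0.86 ± 0.09 (SE), adjusted p = 0.000875) and Ctsh (log2 difference -0.90 ± 0.09 (SE), adjusted p = 0.000635) fell by similar amounts. In lipid and cholesterol handling 12 of 26 tested genes (32 listed) fell and 3 rose, the latter beside the 7.68% of all genes tested that rose. Fabp5, an intracellular fatty acid carrier, had 0.555, 1.64, 0.504, 0.824 and 0.473 CPM in BS-labelled libraries, against 34.3, 27.1, 3.49, 3.65 and 2.49 CPM in Cort-labelled ones. It was 11.7-fold lower (log2 difference -3.55 ± 0.56 (SE), adjusted p = 0.00422). Npc2, which moves cholesterol out of the lysosome (log2 difference -0.60 ± 0.08 (SE), adjusted p = 0.00214), and the lipid droplet coat Plin3 (log2 difference -1.10 ± 0.15 (SE), adjusted p = 0.0021) also fell. Lrp1 (log2 difference 0.47 ± 0.12 (SE), adjusted p = 0.0303), Mylip (log2 difference 0.52 ± 0.12 (SE), adjusted p = 0.0182) and Scd2 (log2 difference 1.02 ± 0.23 (SE), adjusted p = 0.0196) rose, and none of them was called without M2617 or without M2624.

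Cytosolic ribosomal protein genes, which encode the proteins of the translating ribosome, fell nearly as a whole list. All 36 were tested, 33 fell and none rose, with a median log2 difference of -0.60. Rpl10a had 113, 113, 97.7, 94.2 and 77.0 CPM in BS-labelled libraries, against 258, 191, 163, 194 and 136 CPM in Cort-labelled ones. edgeR's paired test returned a log2 difference of -0.91 ± 0.10 (SE), adjusted p = 0.000982, and Rps18 (log2 difference -0.91 ± 0.10 (SE), adjusted p = 0.00107) and Rpl32 (log2 difference -0.94 ± 0.11 (SE), adjusted p = 0.00115) differed by nearly the same size. Of these genes 31 still fell with library totals, 28 to 32 without each mouse, 13 in the 3 mice of both readings and 0 by the sample record. Of 31 oxidative phosphorylation subunits tested, 2 fell (Cox5b, log2 difference -0.54 ± 0.10 (SE), adjusted p = 0.00772; Cox6c, log2 difference -0.36 ± 0.10 (SE), adjusted p = 0.0382), a share below the 8.75% of all genes, and the median was 0.02. Cox6c was called in 0 of the 5 fits without a mouse. Glycolysis genes had 6 falling and 2 rising among 22, the latter a share near the 7.68% of all genes tested. The hexokinase gene Hk1 rose (log2 difference 0.93 ± 0.16 (SE), adjusted p = 0.00606). Another, Hk2, fell (log2 difference -0.61 ± 0.11 (SE), adjusted p = 0.00727), as did the isomerase gene Gpi1 (log2 difference -0.59 ± 0.11 (SE), adjusted p = 0.0077). Hk1 and Gpi1 were called neither in the 3 mice of both readings nor by the sample record. Without M1376, M1524 or M2621 the number of falling glycolysis genes was 3.

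**Figure D2:**
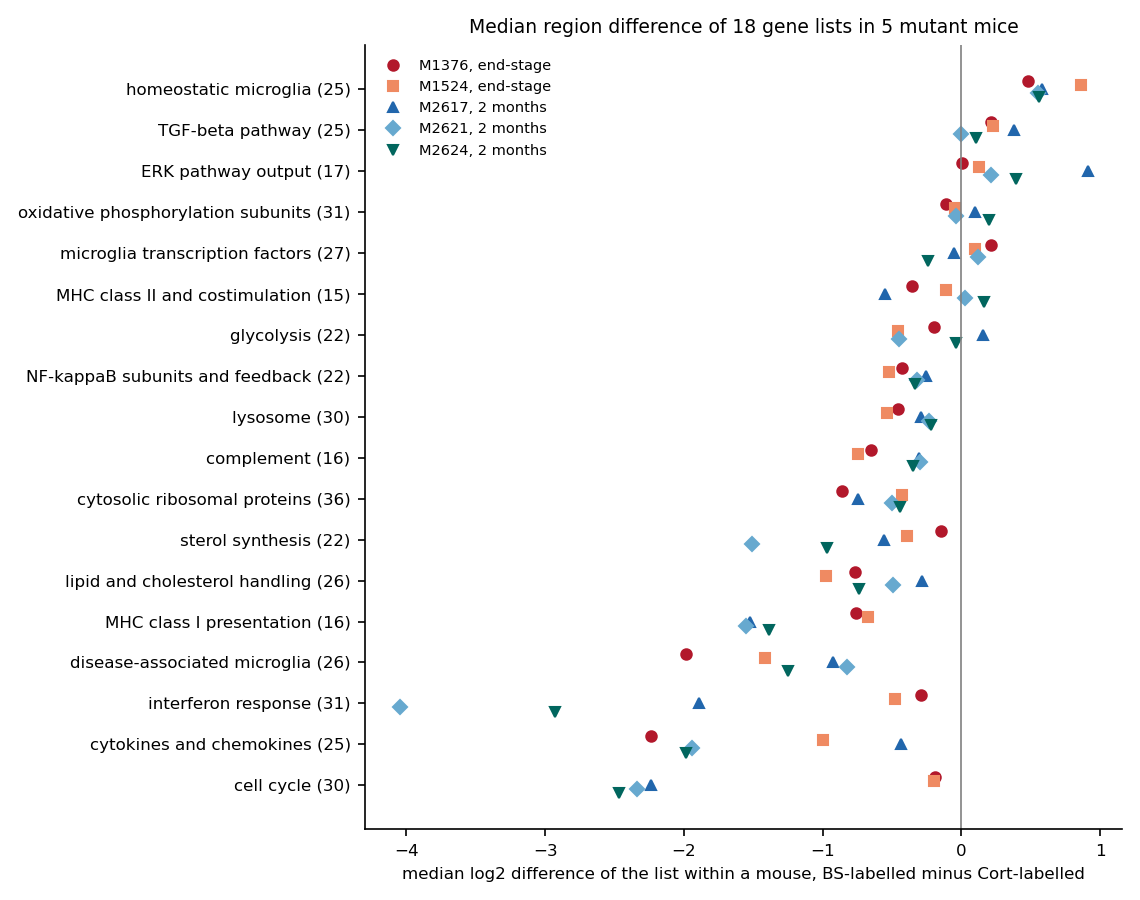
Median log2 difference (BS-labelled minus Cort-labelled) of 18 gene lists within each of 5 mutant mice, with the number of genes tested in parentheses. Homeostatic genes lie right of 0 and disease-associated, MHC class I, lysosomal and ribosomal protein genes left of 0 in every mouse, and the interferon and cell cycle medians of the 2 end-stage mice lie nearer to 0 than those of the 3 mice at 2 months.

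Genes downstream of ERK, the pathway of the mutated kinase, rose in part. Braf itself had 24.5, 15.2, 16.3, 14.5 and 15.99 CPM in BS-labelled libraries, against 17.8, 13.5, 16.02, 5.61 and 11.05 CPM in Cort-labelled ones. The test gave a log2 difference of 0.50 ± 0.21 (SE), adjusted p = 0.136; these counts do not separate the mutant from the wild-type allele. Of 17 tested ERK output genes (23 listed) 7 rose and 2 fell, the latter a share near the 8.75% of all genes tested. The median was 0.16. The phosphatase gene Dusp6 (log2 difference 0.35 ± 0.08 (SE), adjusted p = 0.0158) and Spry1 (log2 difference 1.03 ± 0.21 (SE), adjusted p = 0.011), both feedback inhibitors of the pathway, rose. The ETS factors Etv1 (log2 difference 0.96 ± 0.10 (SE), adjusted p = 0.000672) and Etv5 (log2 difference 0.86 ± 0.12 (SE), adjusted p = 0.00276) and a further inhibitor, Spred1 (log2 difference 0.67 ± 0.11 (SE), adjusted p = 0.00461), rose as well. Egr1, an immediate early factor, had 13.6, 18.4, 32.6, 29.5 and 14.5 CPM in BS-labelled libraries, against 159, 158, 39.9, 136 and 69.2 CPM in Cort-labelled ones. It was 4.97-fold lower (log2 difference -2.31 ± 0.41 (SE), adjusted p = 0.00711), and Myc fell too (log2 difference -0.74 ± 0.16 (SE), adjusted p = 0.0149). For Etv4 the difference was -0.67 ± 0.37 (SE) (adjusted p = 0.249), for the phosphatase gene Dusp1 -0.80 ± 0.31 (SE) (adjusted p = 0.111), for Fos -1.80 ± 0.56 (SE) (adjusted p = 0.0583) and for Jun 0.14 ± 0.16 (SE) (adjusted p = 0.584). Among 26 early genes that tissue dissociation also raises, 11 fell (7 without M2624) and 2 rose, the latter a share near the 7.68% of all genes tested. Among the falling ones were Socs3 (log2 difference -1.14 ± 0.12 (SE), adjusted p = 0.000825) and Nfkbiz (log2 difference -1.67 ± 0.21 (SE), adjusted p = 0.00164). The part of these early genes in the other differences was not tested. Without M2617 or without M2624 the number of rising ERK genes was 4.

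TGF-beta signalling is required for the homeostatic set. Of 25 tested genes on the list of this pathway 5 rose and 2 fell, the latter a share near the 8.75% of all genes tested. Smad2, Smad3, Smad4 and the receptor gene Tgfbr2 were not among the called genes of the list. Tgfbr1, the type I receptor, had 819.5, 793, 719, 854 and 715 CPM in BS-labelled libraries, against 488, 404, 395, 417 and 509 CPM in Cort-labelled ones, without overlap (log2 difference 0.82 ± 0.10 (SE), adjusted p = 0.00136). Smad1 (log2 difference 0.53 ± 0.09 (SE), adjusted p = 0.00531), Smad5 (log2 difference 0.78 ± 0.18 (SE), adjusted p = 0.021) and Tgif2 (log2 difference 1.39 ± 0.32 (SE), adjusted p = 0.0187) rose with Tgfb1, while the receptor Acvrl1 (log2 difference -0.95 ± 0.11 (SE), adjusted p = 0.00112) and the corepressor Tgif1 (log2 difference -0.34 ± 0.09 (SE), adjusted p = 0.0365) fell. Of the 5 fits without a mouse, Smad5 was called in 2 and Tgif1 in 1, and Tgif1 lost its call with library totals. Without M2617, 3 rose. Of 27 tested transcription factors of microglia 9 rose and 7 fell. Maf (log2 difference 0.91 ± 0.12 (SE), adjusted p = 0.00189) and Mef2c (log2 difference 0.93 ± 0.12 (SE), adjusted p = 0.00205) were nearly 2-fold higher, and Cebpb, a factor of inflammatory macrophages, was 1.83-fold lower (log2 difference -0.87 ± 0.11 (SE), adjusted p = 0.0016). Among 16 senescence-linked genes 6 fell and none rose, among them the cell cycle inhibitor Cdkn1a (log2 difference -1.83 ± 0.17 (SE), adjusted p = 0.000489) and the lysosomal galactosidase Glb1 (log2 difference -0.44 ± 0.08 (SE), adjusted p = 0.00939).

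Purinergic and ion channel genes had 7 lower and 3 higher among 19 tested. Against the rise of P2ry12 and P2ry13, the ATP-gated channel P2rx4, which reactive microglia raise after nerve injury, had 138, 175, 139, 126 and 135 CPM in BS-labelled libraries, against 413, 574, 349, 270.3 and 269 CPM in Cort-labelled ones, without overlap (log2 difference -1.34 ± 0.12 (SE), adjusted p = 0.000489). Matrix and adhesion genes had 10 lower and 2 higher among 22 tested, the latter a share near the 7.68% of all genes tested. Fn1, which encodes fibronectin, had 7.597, 57.7, 2.95, 1.36 and 0 CPM in BS-labelled libraries, against 111, 851, 15.8, 16.8 and 22.8 CPM in Cort-labelled ones. It was 14.03-fold lower (log2 difference -3.81 ± 0.41 (SE), adjusted p = 0.000927), and the adhesion molecule Vcam1 was 2.83-fold lower (log2 difference -1.50 ± 0.16 (SE), adjusted p = 0.000927).

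Called genes with the same sign in every mouse, and a log2 CPM averaging 1 or more, were ranked by size of difference. First under the BS label was Ccdc162, a coiled-coil gene. It had 20.6, 11.3, 19.9, 18.6 and 21.4 CPM in BS-labelled libraries, against 0.0544, 0.257, 0.723, 0.901 and 0.916 CPM in Cort-labelled ones. It was 34.2-fold higher (log2 difference 5.10 ± 0.44 (SE), adjusted p = 0.00047). Khdrbs3, an RNA-binding protein, had 69.7, 79.1, 127, 126 and 78.1 CPM in BS-labelled libraries, against 2.72, 0.513, 11.4, 38.1 and 4.63 CPM in Cort-labelled ones. It was 15.03-fold higher (log2 difference 3.91 ± 0.58 (SE), adjusted p = 0.00331). Gimap5, a GTPase of lymphocyte survival, was 12.8-fold higher (log2 difference 3.68 ± 0.55 (SE), adjusted p = 0.00337), and Klrd1, which encodes the natural killer cell receptor CD94, had 19.1, 27.9, 15.9, 58.8 and 77.6 CPM in BS-labelled libraries, against 0.326, 0, 1.87, 9.76 and 16.6 CPM in Cort-labelled ones. In the paired test this was a log2 difference of 3.61 ± 0.66 (SE), adjusted p = 0.00812. That no Cort-labelled library stood above the BS-labelled library of its own mouse was set by the ranking rule. The others were Mab21l2 (log2 difference 4.46), Myo18b (log2 difference 4.44), Rnase10 (log2 difference 4.37), Apob (log2 difference 4.21), Sema6d (log2 difference 4.10), Hs3st2 (log2 difference 3.93), Ptger3 (log2 difference 3.90), Sema4b (log2 difference 3.90), Kctd12b (log2 difference 3.74) and Adra2a (log2 difference 3.69) and Tlr5, and among them Sema6d and Hs3st2 overlapped between the labels. Most of these genes had 0 counts in at least 1 Cort-labelled library, where the fitted difference depends on the prior count. Ptger3, the prostaglandin E2 receptor EP3, kept its call in 3 and Kctd12b in 2 of the 5 fits without a mouse.

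By the same rule the lower side began with Gpnmb and C3. Gpnmb, a glycoprotein of lipid-laden phagocytes, had 0.555, 0.423, 0, 0.242 and 0 CPM in BS-labelled libraries, against 21.2, 65.8, 2.53, 0.451 and 1.58 CPM in Cort-labelled ones, 45.1-fold lower by the fit (log2 difference -5.50 ± 0.84 (SE), adjusted p = 0.00357). P2ry14, the receptor of UDP-glucose, had 0.166, 1.06, 1.08, 0.0970 and 0.0788 CPM in BS-labelled libraries, against 11.5, 20.5, 15.6, 9.16 and 10.4 CPM in Cort-labelled ones. It was 33.5-fold lower without overlap (log2 difference -5.07 ± 0.47 (SE), adjusted p = 0.000489). Mmp12, the macrophage elastase, had 3.60, 4.29, 0.504, 0.533 and 1.497 CPM in BS-labelled libraries, against 158, 159, 3.61, 1.202 and 76.2 CPM in Cort-labelled ones, so its Cort-labelled level varied widely between mice (log2 difference -4.83 ± 0.54 (SE), adjusted p = 0.00103). Cyp4f18, which degrades leukotriene B4, had 7.71, 4.55, 1.94, 0.242 and 0.630 CPM in BS-labelled libraries, against 95.3, 101, 57.8, 18.9 and 42.0 CPM in Cort-labelled ones. Its fitted value was a log2 difference of -4.74 ± 0.34 (SE), adjusted p = 0.000245. The hexose transporter Slc2a6 had 1.89, 8.73, 1.73, 1.16 and 4.25 CPM in BS-labelled libraries, against 54.5, 91.5, 61.4, 36.5 and 51.5 CPM in Cort-labelled ones. For it edgeR's paired test returned a log2 difference of -4.31 ± 0.30 (SE), adjusted p = 0.00022. Both held their calls in the mice of both readings. They were also among the 47 of 144 named genes that kept their call by the sample record. The rest of this group was Emilin2 (log2 difference -5.07), Slamf7 (log2 difference -4.72), Klrb1b (log2 difference -4.70), Anxa2 (log2 difference -4.60), Adam33 (log2 difference -4.34), Pla2g7 (log2 difference -4.34) and Ass1 (log2 difference -4.31), with Cxcl13 and Cxcl14 as above. Emilin2, Adam33, Anxa2, Gpnmb, Slamf7 and Ass1 had 0 counts in at least 1 BS-labelled library, so their fitted differences depend on the prior count and are no bound.

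The region difference was then fitted within each stage, with the 2 end-stage and the 3 younger mice sharing 1 estimate of spread. At end-stage 327 of 15497 genes tested (2.11%) were higher and 485 (3.13%) lower in the BS-labelled libraries. At 2 months 581 (3.75%) were higher and 886 (5.72%) lower. The stage difference, the log2 region difference at end-stage minus that at 2 months, passed the threshold for 20 genes (0.129%; 1167 at an unadjusted p under 0.05). Without M1376 or without M1524 the end-stage count was 136 or 142, where the lone remaining pair is assumed to vary like the younger mice, and the 2-month count was 898 without M2617 and 481 without M2624. The stage interaction had 0 calls without M1376 (DESeq2 called 318 in all mice), 1 without M1524, 66 without M2617, 11 without M2621 and 7 without M2624.

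The homeostatic and disease-associated lists moved in both stages. At end-stage 15 homeostatic genes rose and none fell (median 0.76), and at 2 months 18 rose and none fell (median 0.67). Without M1376 the end-stage count was 8 and without M1524 it was 3. Of 27 tested disease-associated genes 22 fell and none rose at end-stage (median -2.02), and 14 fell and 3 rose at 2 months (median -1.05). Without M1376 the end-stage count of falling genes was 8. At 2 months 9 fell without M2624. The stage difference itself passed for 3 members. Apoe was lower at end-stage (end-stage log2 difference -4.55 ± 0.28 (SE), adjusted p = 0.000222) and at 2 months (2-month log2 difference -1.34 ± 0.20 (SE), adjusted p = 0.0044), and the stages differed (stage log2 difference -3.21 ± 0.32 (SE), adjusted p = 0.0142). Timp2, an inhibitor of matrix metalloproteinases, had 818, 807, 856, 864 and 759 CPM in BS-labelled libraries, against 1239, 1248, 581, 581 and 531 CPM in Cort-labelled ones: lower under the BS label in both end-stage mice and higher in all 3 younger mice (stage log2 difference -1.17 ± 0.14 (SE), adjusted p = 0.0251). Ccl6, a myeloid chemokine, had 416, 312, 457, 768 and 628 CPM in BS-labelled libraries, against 564, 400.1, 252, 359.8 and 250.2 CPM in Cort-labelled ones, with the same turn (stage log2 difference -1.49 ± 0.18 (SE), adjusted p = 0.0251). The lysosomal marker Cd68 also rose at 2 months (2-month log2 difference 0.52 ± 0.09 (SE), adjusted p = 0.00869), while its stage difference did not pass (stage log2 difference -0.85 ± 0.14 (SE), adjusted p = 0.0659).

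Interferon-response genes had their calls at 2 months. At 2 months 29 of 31 tested fell and none rose, with a median log2 difference of -2.99. At end-stage 0 passed (4 at an unadjusted p under 0.05, and 2 by DESeq2), with a median of -0.34. Isg15, a ubiquitin-like antiviral protein, had 9.65, 38.1, 21.7, 7.90 and 12.8 CPM in BS-labelled libraries, against 9.52, 34.2, 72.5, 139 and 89.4 CPM in Cort-labelled ones, close to equal in both end-stage mice and lower under the BS label in the 3 younger ones (2-month log2 difference -2.87 ± 0.39 (SE), adjusted p = 0.0026). Oas2, a sensor enzyme for double-stranded RNA, had 1.497, 29.3, 5.76, 1.41 and 2.36 CPM in BS-labelled libraries, against 4.46, 71.1, 78.3, 68.7 and 108 CPM in Cort-labelled ones. The test gave a 2-month log2 difference of -4.87 ± 0.36 (SE), adjusted p = 0.000334. Rsad2, which encodes viperin, had 5.27, 22.6, 13.3, 1.75 and 5.04 CPM in BS-labelled libraries, against 7.56, 48.96, 65.4, 49.1 and 69.7 CPM in Cort-labelled ones, and the 3 younger mice again had the wider gap (2-month log2 difference -3.54 ± 0.42 (SE), adjusted p = 0.00157). Over both stages Ifi204, a DNA sensor of the nucleus (log2 difference -2.30 ± 0.46 (SE), adjusted p = 0.011), and Ifi27l2a (log2 difference -2.69 ± 0.56 (SE), adjusted p = 0.0128) had small p-values beside Oas2. No member of the list passed the stage interaction, although 28 had an unadjusted p under 0.05 and DESeq2 called 17. Without M2617 the interaction called 18 members; without each of the other 4 mice it called 0. Over both stages 16 of the 31 fell, but 5 did without M2617, 2 without M2624, 11 without M2621, 9 with library totals and 1 in the 3 mice of both readings. In the single 2-month mouse mutant under both readings, M2624, fitted beside the end-stage mice, 25 fell, but the spread behind these calls comes from the end-stage pair alone.

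Other interferon-induced genes outside that list did pass the stage difference. Ifi47, an interferon-inducible GTPase, had 4.21, 14.9, 2.59, 2.04 and 3.23 CPM in BS-labelled libraries, against 4.84, 15.5, 31.7, 35.1 and 35.8 CPM in Cort-labelled ones. The test gave a stage log2 difference of 3.61 ± 0.35 (SE), adjusted p = 0.0142. Oas3, a relative of Oas2 (stage log2 difference 3.36 ± 0.41 (SE), adjusted p = 0.0251), and Ly6a, a surface antigen that interferon raises (stage log2 difference 3.23 ± 0.46 (SE), adjusted p = 0.0494), passed as well. For Ifi47 the stage difference by the sample record, which puts the columns M2618 and M2633 in place of M2617 and M2621, was -0.052, on the other side of 0.

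Cell cycle and sterol synthesis genes also had most of their calls at 2 months. At 2 months 22 of 32 tested cell cycle genes fell and none rose (median -2.90), and at end-stage 1 fell, E2f1 (median -0.37; 10 at an unadjusted p under 0.05). Top2a, the topoisomerase of dividing cells, had 0.166, 0.529, 1.01, 2.86 and 2.44 CPM in BS-labelled libraries, against 0.924, 1.86, 19.8, 15.1 and 26.2 CPM in Cort-labelled ones. In the end-stage mice its Cort-labelled level was below 2 CPM, and in the younger mice it was above 15 CPM, while every BS-labelled library was below 3 CPM. Cdk1, the mitotic kinase, had 1.497, 4.02, 8.49, 8.15 and 7.33 CPM in BS-labelled libraries, against 4.02, 7.19, 38.6, 39.8 and 47.9 CPM in Cort-labelled ones (2-month log2 difference -2.38 ± 0.22 (SE), adjusted p = 0.00063). Over both stages 16 of 30 tested fell, 8 without M2617, 10 without M2621, 6 without M2624 and 3 in the mice of both readings. In sterol synthesis 9 of 22 tested genes fell at 2 months and 0 at end-stage (4 at an unadjusted p under 0.05, and 1 by DESeq2). Cyp51, the lanosterol demethylase, had 13.8, 22.6, 19.5, 17.1 and 23.5 CPM in BS-labelled libraries, against 31.9, 32.3, 53.9, 74.9 and 71.7 CPM in Cort-labelled ones. Its fitted value was a 2-month log2 difference of -1.73 ± 0.20 (SE), adjusted p = 0.00145, and Msmo1 (2-month log2 difference -1.12 ± 0.13 (SE), adjusted p = 0.00127) and Insig1 (2-month log2 difference -1.56 ± 0.20 (SE), adjusted p = 0.00188) fell beside it. The sterol count over both stages was 9, against 4 without M2621 and 5 without M2624. For neither list did a member pass the stage interaction (19 and 10 at an unadjusted p under 0.05; 12 and 3 by DESeq2).

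**Figure D3:**
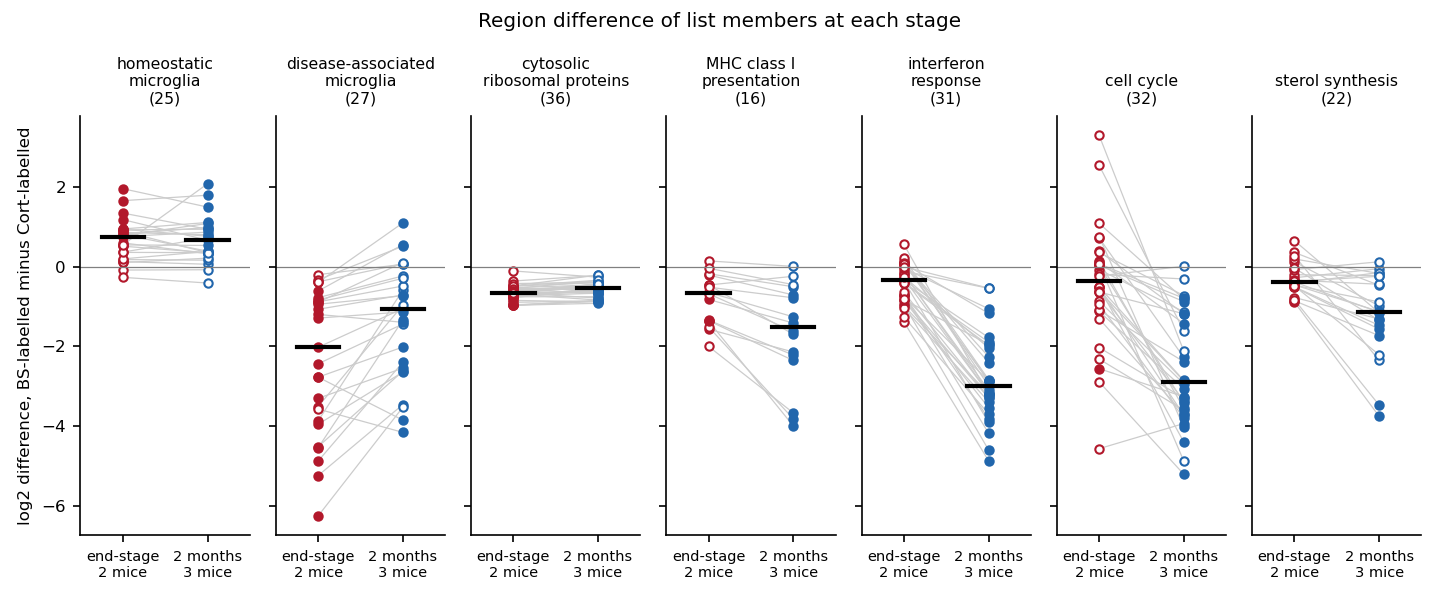
Log2 difference of each tested gene of 7 lists at end-stage (2 mice) and at 2 months (3 mice), joined by gene, with filled points for adjusted p under 0.05 and black bars for the median. Interferon, cell cycle and sterol medians lie near 0 at end-stage (-0.34, -0.37 and -0.38) and at -2.99, -2.90 and -1.13 at 2 months, while the homeostatic medians are 0.76 and 0.67.

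MHC class I genes fell at both stages, 6 of 16 at end-stage (median -0.66; 2 without M1376 and 3 without M1524) and 13 at 2 months (median -1.52), and 0 passed the stage interaction (11 at an unadjusted p under 0.05, and 4 by DESeq2). Ribosomal protein genes had medians of -0.65 at end-stage, where 12 of 36 fell, and -0.54 at 2 months, where 22 fell. Without M1376 or M1524 the end-stage count was 0, and without M2624 it was 5. The 2-month count was 6 without M2617, 12 without M2621 and 3 without M2624.

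Among the 10 genes named from the 20 with a stage difference, Nid2, a basement membrane nidogen, had 51.2, 40.3, 67.9, 70.7 and 68.5 CPM in BS-labelled libraries, against 0.816, 1.03, 17.5, 30.8 and 27.0 CPM in Cort-labelled ones; the end-stage Cort-labelled libraries had about 1 CPM (stage log2 difference 4.13 ± 0.37 (SE), adjusted p = 0.0112). S100a10, an annexin partner, had 13.8, 4.23, 8.56, 20.3 and 4.73 CPM in BS-labelled libraries, against 1.63, 0.513, 11.8, 26.8 and 6.11 CPM in Cort-labelled ones, higher under the BS label at end-stage and lower at 2 months (stage log2 difference 3.47 ± 0.40 (SE), adjusted p = 0.0251). The cholesterol exporters Abcg1 and Abca1 formed a pair. Abcg1 had 163, 101, 109, 96.6 and 120.5 CPM in BS-labelled libraries, against 161, 174, 24.7, 15.4 and 18.8 CPM in Cort-labelled ones, so the Cort-labelled level was high at end-stage and low at 2 months (stage log2 difference -2.88 ± 0.29 (SE), adjusted p = 0.0142), and Abca1 showed the same order (stage log2 difference -1.79 ± 0.25 (SE), adjusted p = 0.0472). Tgfbi, an extracellular protein induced by TGF-beta, was lower under the BS label at end-stage alone (end-stage log2 difference -2.08 ± 0.20 (SE), adjusted p = 0.0012; 2-month log2 difference 0.03 ± 0.16 (SE), adjusted p = 0.931; stage log2 difference -2.11 ± 0.25 (SE), adjusted p = 0.0251), and the Src-family kinase gene Fgr was lower at both (stage log2 difference -1.95 ± 0.27 (SE), adjusted p = 0.043). By the sample record 2 of the 10 were still called. In the 3 mice of both readings 4 were, but there the 2-month side is M2624 alone, whose spread is taken from the end-stage pair.

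Some end-stage differences have no finite fold. Ptger3, Mmp28, Myo18b, Tspan8 and Enpp5 had 0 counts in both end-stage Cort-labelled libraries. Ptger3 had 34.0 and 14.3 CPM in the BS-labelled libraries of M1376 and M1524, Mmp28 had 3.11 and 8.99 CPM, Myo18b 6.10 and 4.55 CPM, Tspan8 7.82 and 2.01 CPM, and Enpp5 1.55 and 3.91 CPM. At 2 months the Cort-labelled libraries had counts of all of them: Ptger3 stood at 1.75, 1.55 and 3.87 CPM, Mmp28 at 1.81, 2.85 and 2.70 CPM and Enpp5 at 5.66, 3.15 and 1.43 CPM, while Myo18b stood at 0.301, 0.601 and 0.967 CPM and Tspan8 at 0.843, 1.202 and 1.37 CPM. On the other side at end-stage, Ahnak2 had 0.0555 and 0 CPM in the BS-labelled libraries, against 6.25 and 3.66 CPM in the Cort-labelled ones. Pimreg had 0 and 0 CPM in the BS-labelled libraries, against 0 and 1.73 CPM in the Cort-labelled ones, where 1 library carries the difference. Colec12, a scavenger collectin, had 0.665 and 2.27 CPM in the BS-labelled libraries, against 41.1 and 193 CPM in the Cort-labelled ones (end-stage log2 difference -6.22 ± 0.34 (SE), adjusted p = 0.000222). Among the genes named for 2 months were Kcnj12 (2-month log2 difference 4.77 ± 0.65 (SE), adjusted p = 0.00265), Slfn1 (2-month log2 difference -6.50 ± 0.62 (SE), adjusted p = 0.000719), Atp10a (2-month log2 difference -5.71 ± 0.75 (SE), adjusted p = 0.00229) and Inf2 (2-month log2 difference -5.34 ± 0.62 (SE), adjusted p = 0.00145). In the BS-labelled libraries of M2617, M2621 and M2624, Slfn1 had 3, 1 and 0 counts. Atp10a had 0, 7 and 5 counts there, and Inf2 had 1, 0 and 1. Kcnj12 had 11, 0 and 1 counts in the Cort-labelled libraries of these mice. The fitted sizes of these genes therefore depend on the prior count. By the sample record Kcnj12, Slfn1 and Atp10a lost their 2-month calls.

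The same region contrast was fitted in the 5 control mice, in 1 model of all 20 libraries. In controls 88 of 14781 genes tested (0.595%) were higher and 260 (1.76%) lower in the BS-labelled libraries, and the genotype difference (the log2 region difference in mutants minus that in controls) passed for 42 genes (0.284%; 1554 at an unadjusted p under 0.05). The control count was 86 without M1521, 107 without M2618, 123 without M2629 and 142 without M2633. In controls 2 homeostatic genes rose (Crybb1 and Fcrls, median of the list 0.24), 4 disease-associated genes fell (median -0.25) and 3 interferon genes fell, with a median of -1.37. Without single control mice these control counts of falling genes went down to 0 (M1521, both lists; M2629, interferon). Ribosomal protein genes had 0 calls in controls (1 at an unadjusted p under 0.05) and a median of 0.08, and none passed the genotype interaction, where 35 of 36 had an unadjusted p under 0.05 and DESeq2 called 20 as more negative in mutants. MHC class I genes had 0 calls in controls (7 at an unadjusted p under 0.05; median -0.35) and 0 in the interaction (12 at an unadjusted p under 0.05, and 7 by DESeq2).

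Cst7 was the single disease-associated gene past the genotype test: its log2 region difference was -2.33 ± 0.20 (SE) in mutants and 0.04 ± 0.29 (SE) in controls (genotype log2 difference -2.37 ± 0.40 (SE), adjusted p = 0.0346). P2ry13 was the one homeostatic gene past this test (genotype log2 difference 0.72 ± 0.12 (SE), adjusted p = 0.0289), and P2ry12 did not pass (genotype log2 difference 1.12 ± 0.26 (SE), adjusted p = 0.086). Ccdc162, given above for the mutants, had in the control mice 19.7, 23.3, 16.9, 24.97 and 20.7 CPM in the BS-labelled, against 6.11, 4.17, 9.20, 12.0 and 6.25 CPM in the Cort-labelled libraries (order M1375, M1521, M2618, M2629, M2633), so the control difference had the same sign and a smaller size (genotype log2 difference 3.53 ± 0.52 (SE), adjusted p = 0.0222). Gimap6, an immune GTPase, had 122, 59.9, 131, 142 and 113 CPM in BS-labelled libraries, against 6.69, 3.53, 23.8, 30.6 and 23.3 CPM in Cort-labelled ones in mutants and 62.0, 92.8, 57.1, 64.97 and 72.9 CPM in the BS-labelled, against 50.6, 54.3, 55.6, 71.4 and 54.6 CPM in the Cort-labelled libraries in controls, where the label made little difference (genotype log2 difference 2.69 ± 0.39 (SE), adjusted p = 0.0222). Klhdc8b, a kelch-domain protein of cell division, also passed (genotype log2 difference 2.11 ± 0.32 (SE), adjusted p = 0.0238), and so did the semaphorin Sema4b (genotype log2 difference 3.44 ± 0.64 (SE), adjusted p = 0.0456). The sugar transporter Slc5a10 had in controls 5.60, 11.9, 12.3, 4.83 and 13.7 CPM in the BS-labelled, against 2.63, 3.49, 7.92, 1.79 and 7.82 CPM in the Cort-labelled libraries, the same sign as in mutants and a smaller size (genotype log2 difference 3.03 ± 0.54 (SE), adjusted p = 0.0421).

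On the lower side Pla2g7, which inactivates platelet-activating factor, had 3.72, 4.18, 0.576, 0.727 and 0.0788 CPM in BS-labelled libraries, against 119, 117, 6.45, 2.40 and 10.6 CPM in Cort-labelled ones in mutants and 1.27, 6.58, 1.12, 3.68 and 2.42 CPM in the BS-labelled, against 0.632, 5.81, 1.94, 1.05 and 3.29 CPM in the Cort-labelled libraries in controls (genotype log2 difference -4.56 ± 0.70 (SE), adjusted p = 0.0248). Ms4a6c, a membrane protein of monocytes and macrophages, had 13.1, 35.6, 21.7, 15.1 and 12.3 CPM in BS-labelled libraries, against 84.6, 111, 55.96, 64.98 and 59.7 CPM in Cort-labelled ones in mutants and 24.5, 18.9, 34.9, 21.0 and 22.9 CPM in the BS-labelled, against 18.1, 16.96, 19.95, 26.3 and 24.98 CPM in the Cort-labelled libraries in controls (genotype log2 difference -2.20 ± 0.28 (SE), adjusted p = 0.0222). Cd244a, a receptor of the SLAM family (genotype log2 difference -2.87 ± 0.50 (SE), adjusted p = 0.0365), and Arhgap19, a GTPase-activating protein (genotype log2 difference -1.77 ± 0.32 (SE), adjusted p = 0.0427), complete the 10 named. These calls depended on single mice: 0 genes passed without M2618 and 1 without M2629, against 83 without M1375, 14 without M1376, 12 without M1524, 12 without M2624, 15 without M2633 and 18 without M1521. The count also depended on the reading of the labels, since 8 genes passed in the 6 mice with the same genotype under both readings and 0 by the sample record (DESeq2 called 383 under the main reading).

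**Figure D4:**
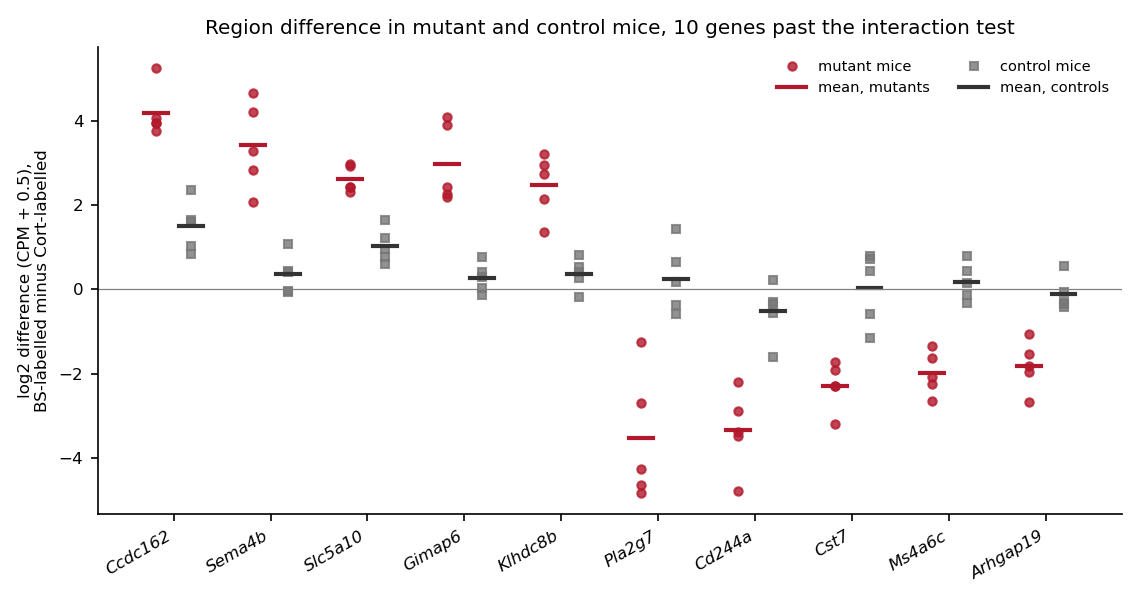
Within-mouse log2 difference of CPM + 0.5 (BS-labelled minus Cort-labelled) for 10 genes past the genotype interaction, in 5 mutant mice (red circles, left) and 5 control mice (grey squares, right), with bars for the means. For Gimap6 and Klhdc8b the mutant mice lie above the control mice (fitted differences 2.97 and 2.49 in mutants, 0.28 and 0.38 in controls), and for Cst7 they lie below (-2.33 and 0.04).

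Markers of other cells were followed in the same libraries. Monocyte genes summed to 99.6 to 442 CPM in the BS-labelled and 574 to 3515 CPM in the Cort-labelled libraries. Of 14 listed, 7 were tested, 4 fell and 1 rose. Most of that sum was Lyz2, with 195, 273, 202, 74.5 and 59.6 CPM in BS-labelled libraries, against 2205, 2467, 589.6, 298 and 361 CPM in Cort-labelled ones. edgeR's paired test returned a log2 difference of -2.57 ± 0.27 (SE), adjusted p = 0.000875. Ccr2, the defining receptor of inflammatory monocytes, ran the other way with 3.44, 5.40, 4.39, 6.55 and 10.0 CPM in BS-labelled libraries, against 2.01, 1.99, 1.27, 1.45 and 1.22 CPM in Cort-labelled ones. The test gave a log2 difference of 1.83 ± 0.38 (SE), adjusted p = 0.0125. Border-associated macrophage genes summed to 392 to 637 CPM in the BS-labelled and 318 to 807 CPM in the Cort-labelled libraries. Of 8 tested 1 rose and 2 fell, with Ms4a7 lower (log2 difference -3.58 ± 0.89 (SE), adjusted p = 0.0261; called in 1 of 5 fits without a mouse), and the mannose receptor Mrc1 at no more than 5.04 CPM in any library (log2 difference 0.59 ± 0.83 (SE), adjusted p = 0.664).

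Few lymphoid and neutrophil markers were tested. T and NK cell genes summed to 66.9 to 140 CPM in the BS-labelled and 5.78 to 67.6 CPM in the Cort-labelled libraries. Klrd1, given above, was the 1 of 2 tested genes that passed. B cell genes summed to 443 to 1212 CPM in the BS-labelled and 375 to 660 CPM in the Cort-labelled libraries. Most of each sum was the immunoglobulin heavy chain transcript Ighm, which rose (log2 difference 0.68 ± 0.13 (SE), adjusted p = 0.0108), as did Ighd (log2 difference 1.90 ± 0.16 (SE), adjusted p = 0.000442). Cd22, which macrophages also express, fell (log2 difference -2.55 ± 0.22 (SE), adjusted p = 0.000454), with 9.59 and 30.9 CPM in the end-stage BS-labelled libraries, against 95.2 and 200.5 CPM in the end-stage Cort-labelled ones. Of the neutrophil list 1 gene was tested, Csf3r, which microglia also express, and it fell (log2 difference -0.46 ± 0.08 (SE), adjusted p = 0.0062).

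Genes of the surrounding tissue differed in level from list to list. Oligodendrocyte genes summed to 245 to 321 CPM in the BS-labelled and 268 to 379 CPM in the Cort-labelled libraries. Of these genes 3 of 6 tested fell (1 without M2621 or M2624), among them Mbp (log2 difference -0.83 ± 0.17 (SE), adjusted p = 0.0109) and Ptgds (log2 difference -2.57 ± 0.69 (SE), adjusted p = 0.0344). Astrocyte genes summed to 201 to 1182 CPM in the BS-labelled and 151 to 947 CPM in the Cort-labelled libraries, most of it Slc1a3, which rose slightly (log2 difference 0.36 ± 0.10 (SE), adjusted p = 0.0401; called in 1 of 5 fits without a mouse), while Gfap (log2 difference -3.67 ± 0.71 (SE), adjusted p = 0.00991) and Aldh1l1 (log2 difference -1.70 ± 0.35 (SE), adjusted p = 0.013) fell. The 20 neuronal genes summed to 2.92 to 15.5 CPM in the BS-labelled and 4.81 to 14.1 CPM in the Cort-labelled libraries. Of them 0 of 3 tested passed, with the smallest p for the neurofilament gene Nefl (log2 difference -2.46 ± 0.96 (SE), adjusted p = 0.112; 1 gene at an unadjusted p under 0.05, and 1 by DESeq2). The precursor gene Cspg4 stood at 36.9 and 86.6 CPM in the end-stage Cort-labelled libraries and at no more than 2.34 CPM in the other 8. All 12 precursor genes together summed to 37.2 and 88.0 CPM in these end-stage Cort-labelled libraries (M1376 and M1524), so nearly all of each sum was Cspg4. Endothelial genes summed to 688 to 1171 CPM in the BS-labelled and 719 to 1121 CPM in the Cort-labelled libraries, with Pecam1 higher (log2 difference 1.84 ± 0.30 (SE), adjusted p = 0.0046) and Flt1 lower (log2 difference -3.42 ± 0.67 (SE), adjusted p = 0.0101). The part of these cells in the differences above was not tested.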

How the data were processed

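Bulk RNA was measured in 20 libraries (SMART-Seq v4, 12 cycles; KAPA Hyper, 8 cycles; NovaSeq, per the labels' protocols). The values are whole-number gene counts as deposited by the authors; mm10, FastQC, Subread and edgeR are named without versions in the submitters' processing notes. Annotation, strand setting and treatment of reads matching several genes are not given in the sources used here, so overlapping, antisense and near-identical genes are uncertain. Of 55487 identifiers 93 had no gene name (0.00123% of counts). They stayed in the counts that were filtered and tested, and were left out of the genes named by rule. Whether libraries of a group came from separate litters is not given, so p-values measure how the within-mouse region differences vary among these mice.

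Genes were filtered by filterByExpr, scaled by TMM and tested with edgeR 4.0.16 (R 4.3.3) by the quasi-likelihood test with mouse as a block, Benjamini-Hochberg adjustment and a threshold of 0.05. One model split the region difference by stage, another, over all 20 libraries, by genotype. The same-mouse libraries are paired by the animal (correlations of deviations from region means 0.237 to 0.478). Levels are TMM-scaled CPM. In the text, rose and fell mean an adjusted p under 0.05. Counting error only is covered by the floor of 3 counts. Alternatives were no block, DESeq2 1.42.0, limma-voom (limma 3.58.1), other scaling and filters, each mouse left out, and other readings of the labels.

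Named by rule were the 15 largest rises and 15 largest falls among called genes that averaged a log2 CPM of 1 or more and had 1 sign in all 5 mice (predicted and clone genes left out), up to 3 called members of each list with the smallest p (or 1 where none passed), a fixed set (Braf, Hox genes with 10 or more counts and known markers), and the 5 largest on each side for each stage, the stage difference and the genotype difference. The members and lists were chosen with earlier results of these data known, and lists overlap. Other named genes, and the 2 promoter motifs, were chosen after values were seen; upstream sequences are RefSeq's (GRCm38.p6). Results of some listed genes are not reported here.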

Additional observations from a re-analysis of the deposited data

Results flagged for a closer look

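In 7 of 172 groups of 5 within-mouse differences tested, 1 mouse lay apart from the other 4 by Dixon's criterion (0.71 for 5 values), and chance marks about 1 group in 20. The log2 difference (BS-labelled minus Cort-labelled) of Ccdc162 was 5.25 in M1376, against 3.77 to 4.06 in the others. In the same mouse P2ry13 had 0.62 (others 0.94 to 1.05), E2f1 -1.40 (others -3.14 to -2.76) and Glb1 -0.29 (others -0.50 to -0.46). In M2617 Adam33 had -0.72 (others -4.57 to -3.87), Ctss -1.03 (others -0.80 to -0.73) and Flt1 -0.37 (others -3.85 to -2.87).

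The region difference at end-stage minus that at 2 months, on the log2 scale, passed edgeR's test for genes described above: Apoe at -3.21, Abcg1 at -2.88, Tgfbi at -2.11, Fgr at -1.95, Abca1 at -1.79, Ccl6 at -1.49 and Timp2 at -1.17 were more negative at end-stage. Nid2 at 4.13, Ifi47 at 3.61, S100a10 at 3.47, Oas3 at 3.36, Ly6a at 3.23 and Gimap6 at 1.82 were more positive at end-stage. Both end-stage mice and 1 of the 3 younger mice had Xist counts, so stage and sex overlapped in part, and the part of sex was not tested.

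The region difference in mutants minus that in controls passed for Ccdc162 at 3.53, Sema4b at 3.44, Slc5a10 at 3.03, Gimap6 at 2.69, Klhdc8b at 2.11, Ighd at 1.43 and P2ry13 at 0.72. It was negative for Colec12 at -8.30, Pla2g7 at -4.56, Cd244a at -2.87, Cst7 at -2.37, Ms4a6c at -2.20, Arhgap19 at -1.77, Cdkn1a at -1.44 and P2rx4 at -0.91. Colec12 had 0 counts in the BS-labelled libraries of M2621 and M2624, so its size depends on the prior count.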

How the results depend on the processing

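The count of 2227 genes kept within 1.5 times its value with no replicate block (1636), DESeq2 (3042), limma-voom (2609), RLE size factors (2232), library totals (2241), no low-count filter (3155), a mean CPM of at least 1 (2319) and all 20 libraries in the fit (2186); it was 1407 to 1627 without each mouse, 897 in the 3 mice of both readings and 518 by the sample record. For end-stage, 2 months and the stage difference (812, 1467 and 20 genes) the fit with no replicate block gave 305, 665 and 2, no low-count filter 1605, 2354 and 479, DESeq2 1437, 2206 and 318, and the sample record 473, 180 and 4. Without each mouse they ran from 136 to 1040, 481 to 1147 and 0 to 66. Chosen after seeing the data, the mice with Xist counts gave 617 at 2 months and 105 for the stage difference, and the mice of both readings gave 403 at 2 months; in both fits the 2-month side is 1 mouse, with its spread taken from the end-stage pair, so they say nothing of stability. For controls and the genotype difference (348 and 42) no replicate block gave 139 and 1, no filter 924 and 549, DESeq2 874 and 383, the sample record 595 and 0, mice of 1 genotype under both readings (chosen after seeing the data) 21 and 8, and leaving out each mouse 86 to 338 and 0 to 83. The mean log2 ratio of brainstem tissue genes (-0.03) was 0.0504 with library totals and -0.10 to 0.0017 without each mouse; that of neuronal genes (-0.026) was 0.056 with library totals and -0.42 to 0.31 without each mouse. The stage difference of Ifi47 reversed to -0.052 by the sample record. The causes were not tested. Genes below 0.236 CPM rest on at most 3 counts in the shallowest library.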
